A study of Bos taurus with 10 samples.

Results

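The steroidogenic genes of follicular cells were described here across immature and in vitro matured (IVM) bovine oocytes. They were *STAR*, *CYP11A1*, *CYP19A1*, *HSD17B1*, *HSD3B1*, *FDX1*, *FDXR*, *NR5A1* and *NR5A2*, and each probe set whose only annotated gene symbol was one of these was taken. The 9 genes gave 14 of the 24016 probe sets tested, for 8 genes, and *FDXR* had no probe set named here. The immature group was 5 pools of oocytes stripped of their cumulus cells straight after collection from slaughterhouse ovaries of cows, at 0 h. The IVM group was 5 pools from cumulus-oocyte complexes kept for 24 h in medium with fetal calf serum and epidermal growth factor and stripped afterwards. No genotype or further treatment set the groups apart. There was 1 Affymetrix bovine array for each pool, a replicate was a day of ovary collection, and a pool mixes oocytes of several follicles.

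Steroid hormones are made from cholesterol. *STAR* carries cholesterol into the mitochondrion, where the enzyme encoded by *CYP11A1* cuts its side chain to give pregnenolone, with electrons handed on by the reductase *FDXR* and the small iron-sulphur protein *FDX1*. *HSD3B1* turns pregnenolone into progesterone, *CYP19A1* (aromatase) turns androgens into oestrogens and *HSD17B1* reduces oestrone to the stronger oestradiol. The nuclear receptors *NR5A1* and *NR5A2* switch on many of these genes. In a growing follicle granulosa cells make oestradiol from theca cell androgens, and after the ovulatory signal the follicle wall turns to progesterone, while the oocyte itself is not known as a main source of steroids.

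The deposited values are log2 values, with array medians between 7.04 and 7.10. Where the probes of a probe set do not rise and fall together, the authors' summary method gives it an almost constant value. A probe set was therefore said to vary where its 10 values spanned at least 0.01. Of the 14 probe sets 7 varied, which were 1 for each of 7 genes. Immature replicates 1, 2 and 3 stood apart in the hybridization control transcripts, at 9.38 to 9.73 against 10.75 to 11.22 on the other 7 arrays. Poly-A control transcripts, added to the RNA before amplification, were at 6.85 to 7.24 on the immature and 7.73 to 8.23 on the IVM arrays. Oocyte markers such as *ZP2* (means 13.82 in immature and 13.16 in IVM) and *KPNA7* (13.2 and 13.57) lay well above the array medians. Others fell in IVM oocytes, such as *GDF9* (13.18 and 8.77). All 8 oocyte genes found on the array varied. Their summed level was 16.00 to 16.47 on the immature and 14.50 to 15.24 on the IVM arrays. Some markers of granulosa and cumulus cells also lay well above the array medians, such as *INHA* (means 11.13 in immature and 10.22 in IVM) and *SERPINE2* (11.8 and 11.94). Others did not, such as *FSHR* (6.82 and 6.53). Of 12 such markers found on the array 10 varied, which by itself does not show presence, the exceptions being *FOXL2* and *KRT8*. Their summed level ran from 11.25 to 15.25 and from 12.05 to 15.24. Of 9 genes of theca and stroma 4 varied (7.98 to 8.83 and 9.50 to 12.42), namely *INSL3*, *COL3A1*, *DCN* and *LUM*. *LUM* had the highest IVM mean of them (9.9, against 5.53 in immature). The paper proposes that *LUM* is newly transcribed in maturing oocytes. Means of *DCN* were 5.99 in immature and 7.77 in IVM, those of *INSL3* 6.69 and 8.57, and those of *COL3A1* 6.73 and 6.74. Which cells these transcripts came from was not tested. *CYP17A1* and *LHCGR*, also on the theca and stroma list, did not vary, and none of the 6 blood and immune genes found did. The cumulus expansion list, with 5 of 7 genes varying, was at 10.04 to 11.69 and at 13.18 to 17.51. Per the study's methods, only oocytes without traces of cumulus were kept.

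Both oestrogen-forming genes were lower in IVM oocytes, *HSD17B1* with the largest difference of the 7 probe sets. *HSD17B1* was at 11.91, 8.33, 13.03, 12.99 and 10.93 (log2 values of replicates 1 to 5) in immature oocytes. In IVM oocytes it was at 5.56, 5.69, 5.91, 6.20 and 5.08. All immature arrays lay above all IVM arrays, with a gap of 2.13 between the nearest, and immature replicate 2 lay well below the other immature arrays. The means were 11.44 ± 1.94 (SD, n = 5) and 5.69 ± 0.42, a difference of -5.75 (standard error 0.88, adjusted p = 0.00142 from limma), or 53.8-fold on the scale of these summarised values. An earlier annotation of this probe set also listed a locus similar to *HSD17B1*, and these copies cannot be told apart here. In bulk pools, fewer cells of a type and less RNA per cell cannot be told apart either.

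*CYP19A1* gave a value that varied on 1 of its 4 probe sets. The immature arrays were at 7.65, 6.71, 8.45, 7.79 and 7.39, and the IVM arrays at 6.23, 6.22, 6.37, 6.10 and 6.18. The groups did not overlap, and the IVM arrays were close together (SD 0.10, against 0.63 in immature oocytes). The difference was -1.38 (standard error 0.28, adjusted p = 0.00656 from limma). The other 3 probe sets stayed within 0.01 of 6.74, 6.06 and 6.02 on all 10 arrays.

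*HSD3B1*, on the way to progesterone, overlapped between the groups. It was at 7.86, 6.72, 8.73, 8.48 and 7.24 in immature oocytes, and at 6.88, 7.32, 7.24, 8.20 and 6.72 in IVM oocytes. The highest IVM array was replicate 4, and the lowest array of each group was at the same value. The difference of -0.53 had a 95% interval from -1.57 to 0.51 (adjusted p = 0.461 from limma), so the data allow a fall or a small rise.

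**Figure D1:**
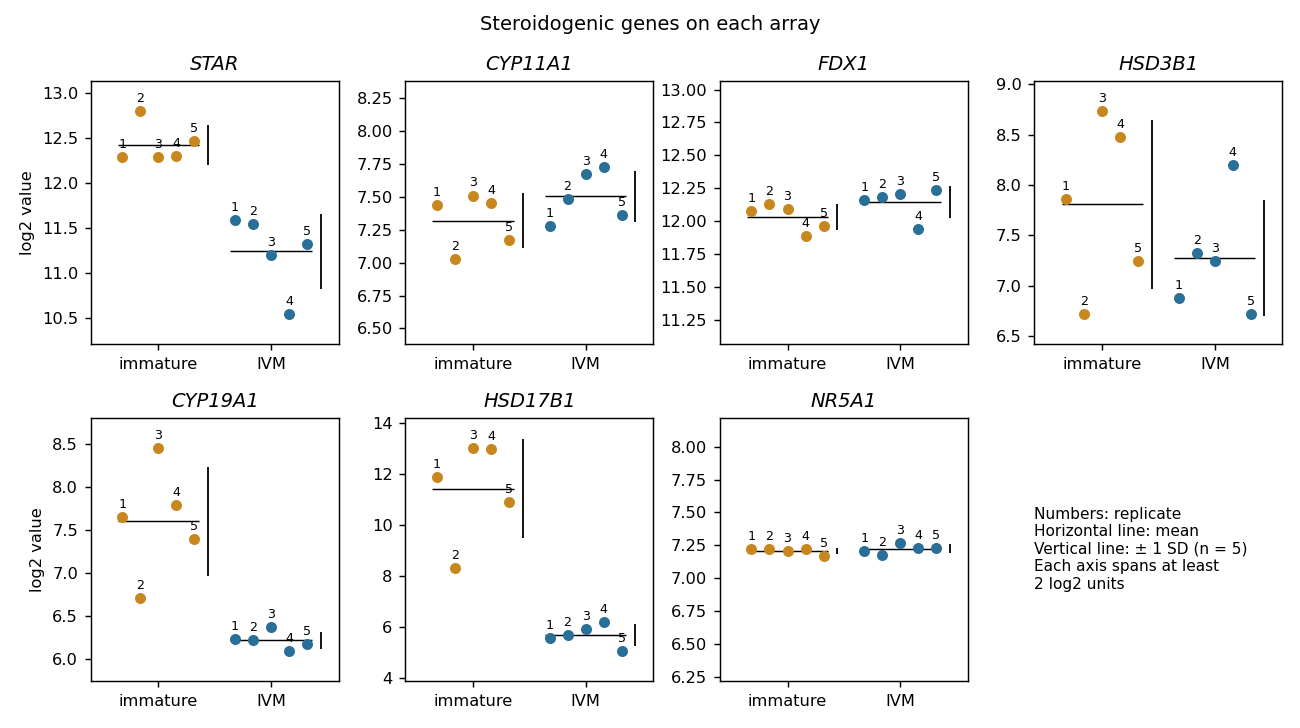
Log2 value of the 7 steroidogenic probe sets that varied, on each of the 5 immature (orange) and 5 IVM (blue) arrays. Points carry the replicate number, horizontal lines are means and vertical lines are ± 1 SD, and the immature arrays lie above all IVM arrays for *STAR*, *CYP19A1* and *HSD17B1*.

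The step that commits cholesterol to steroid synthesis did not move as one. *STAR* was at 12.29, 12.80, 12.29, 12.30 and 12.47 in immature oocytes and at 11.59, 11.55, 11.20, 10.55 and 11.33 in IVM oocytes, with no overlap. The lowest immature and the highest IVM array were 0.70 apart, and IVM replicate 4 was the lowest of all. The difference was -1.19 (standard error 0.21, adjusted p = 0.00306 from limma), a level 2.28-fold lower in IVM oocytes. *CYP11A1*, the next enzyme, was at 7.44, 7.03, 7.51, 7.45 and 7.17 and then at 7.28, 7.48, 7.67, 7.73 and 7.36, so the groups overlapped. Its difference was 0.18 with a 95% interval from -0.11 to 0.48 (adjusted p = 0.351 from limma).

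*FDX1*, the electron donor of *CYP11A1* and of other mitochondrial enzymes, repeated closely between pools. It was at 12.08, 12.13, 12.09, 11.89 and 11.96 in immature oocytes and at 12.16, 12.18, 12.21, 11.94 and 12.24 in IVM oocytes. The groups overlapped through IVM replicate 4 alone, since the other IVM arrays lay above all immature arrays. The difference of 0.11 had an interval from -0.05 to 0.28 (adjusted p = 0.282 from limma, and 0.0469 at 0.17 without IVM replicate 4).

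The nuclear receptors gave little to measure. Of 4 *NR5A1* probe sets, 3 did not vary, and the other ran from 7.17 to 7.22 in immature and from 7.18 to 7.27 in IVM oocytes, a difference of 0.02 (95% interval -0.02 to 0.05, adjusted p = 0.580 from limma). The single *NR5A2* probe set was at 7.56 on all 10 arrays. From such a constant value, an absent transcript, a steady one and one missed by the probes cannot be told apart.

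**Figure D2:**
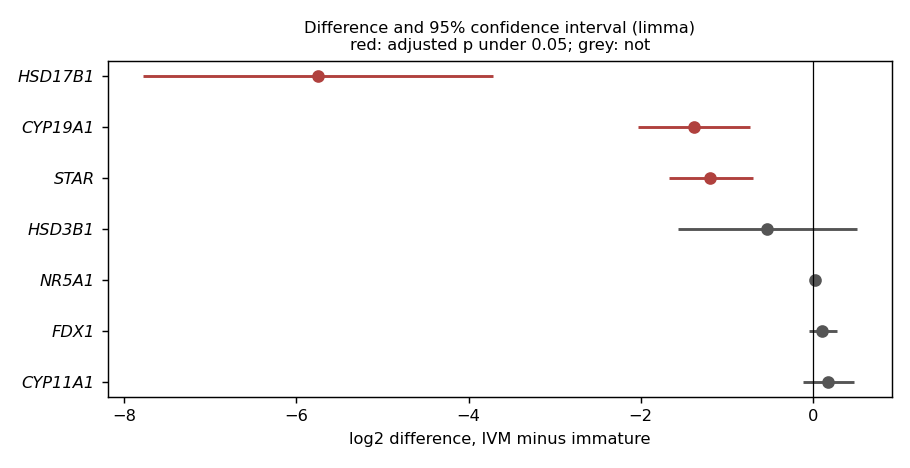
Log2 difference between IVM and immature oocytes (horizontal axis, IVM minus immature) with its 95% confidence interval from limma, for the 7 probe sets that varied. *HSD17B1* has the largest and also the least precise difference, and the intervals of *HSD3B1*, *CYP11A1*, *FDX1* and *NR5A1* include 0.

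The study's methods set the false discovery rate at 0.0001. At that adjusted p 0 of the 14 probe sets were lower (4.81% of all probe sets were) and 0 were higher (0.974% of all were). At an unadjusted p under 0.05 limma gave 3 of the 14, all lower (18.0% of all were lower and 20.9% higher). At an adjusted p under 0.05, 3 of the 14 were lower (21.4%, against 15.0% of all probe sets) and 0 were higher (15.5% of all). The same 3, those of *STAR*, *CYP19A1* and *HSD17B1*, were the ones whose groups did not overlap, as was true of 11.5% of all probe sets in the lower direction. After centring on the poly-A controls, which moved the median of all probe sets by -0.94, 4 of the 7 that varied were lower at the strict threshold and 0 higher (43.4% and 1.74% of all probe sets that varied). At 0.05 all 7 were lower and 0 higher (62.1% and 8.53% of all that varied), and lower too were the 7 near-constant member probe sets, which that shift moves as a whole. *HSD3B1* was then at -1.47 (adjusted p = 0.00105 from limma), and *CYP11A1*, *FDX1* and *NR5A1* turned to -0.75, -0.82 and -0.92 (adjusted p = 1.17e-04, 1.45e-04 and 6.98e-06). With 14 probe sets nothing about the set as a whole is read from these shares. Immature replicate 2 decided the strict call of *HSD17B1*, which passed without it (adjusted p = 7.57e-05 from limma). Immature replicates 4 and 5 alone, which had the hybridization control level of the IVM arrays, gave against IVM -6.27 for *HSD17B1* (adjusted p = 0.00384), -1.37 for *CYP19A1* (adjusted p = 0.00319) and -1.14 for *STAR* (adjusted p = 0.0799, no longer past 0.05).

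Among the immature pools, *HSD17B1*, *CYP19A1*, *HSD3B1* and *CYP11A1* fell in one order. Each was highest in replicate 3, followed by replicates 4, 1, 5 and 2. The granulosa genes *INHA*, *INHBA* and *FST*, which encode inhibin and activin subunits and follistatin, had this order too. Not all genes of the granulosa and cumulus list did. *GJA1* and *SERPINE2* were highest in replicate 4 and lowest in replicate 2, *KRT18* was lowest in replicate 3 and *KITLG* highest in replicate 2. *INHA* was at 11.56, 7.99, 12.59, 12.53 and 10.98 in the immature pools, a range of 4.59 that compares with 4.70 for *HSD17B1*. *STAR* did not follow the order of *HSD17B1*, being highest in replicate 2 and lowest in replicate 3. Nor did *FDX1*, which was highest in replicate 2 and lowest in replicate 4. The granulosa and cumulus level moved with the steroidogenic enzymes within the immature group, from 11.25 in replicate 2 to 15.25 in replicate 3, and its part in these values was not tested.

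Within the IVM pools, *HSD3B1* again had the order of *INHA*, *INHBA* and *FST*, highest in replicate 4 and lowest in replicate 5. *HSD17B1* was highest and lowest in these same pools but spanned only 1.11, while *CYP19A1* was lowest in replicate 4. The summed granulosa and cumulus level of IVM replicate 4 was near that of the richest immature pools, replicates 3 and 4 (15.24 against 15.25 and 15.20). Its *HSD17B1* was 6.20 where theirs was 13.03 and 12.99. For *CYP19A1* the same pools were at 6.10 against 8.45 and 7.79. On *HSD3B1* they were nearer, at 8.20 against 8.73 and 8.48. The genes behind the near-equal sums differed between these pools. *FST* was at 11.4 against 13.08 and 13.01, and *INHA* at 11.91 against 12.59 and 12.53. *SERPINE2* was at 13.59 against 12.56 and 12.99, and *KRT18* at 12.05 against 5.63 and 9.27.

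Relative to the granulosa and cumulus level of the same array, *HSD17B1* did not overlap between the groups. The log2 level minus that of the list was -1.84, -2.93, -2.22, -2.21 and -2.47 in the immature pools and -7.30, -8.08, -7.69, -9.04 and -6.96 in the IVM pools. The means were -2.33 ± 0.40 (SD, n = 5) and -7.82 ± 0.80, so the difference was -5.48 (standard error 0.40), with the spread narrower than that of *HSD17B1* itself in the immature pools (SD 1.94) and wider in the IVM pools (SD 0.42). The other 6 probe sets overlapped between the groups on this measure. In a limma fit over all probe sets with this level as a covariate, added after the values were seen, *HSD17B1* had a difference of -5.51 (adjusted p = 5.69e-05), *CYP19A1* -1.32 (adjusted p = 0.00239) and *STAR* -1.23 (adjusted p = 6.81e-04). In the same fit *HSD3B1* passed 0.05 at -0.40 (adjusted p = 0.0409) and so did *CYP11A1* at 0.22 (adjusted p = 0.0380), where 16.3% of all probe sets were lower and 18.9% higher. The list holds genes that themselves differed between the groups, such as *KRT18* and *KITLG*. *KITLG*, with means of 7.34 in immature and 6.68 in IVM, adds little to the sum. *FST*, which adds more (11.29 and 9.49), had a difference of -1.79 without passing 0.05 (adjusted p = 0.307 from limma).

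**Figure D3:**
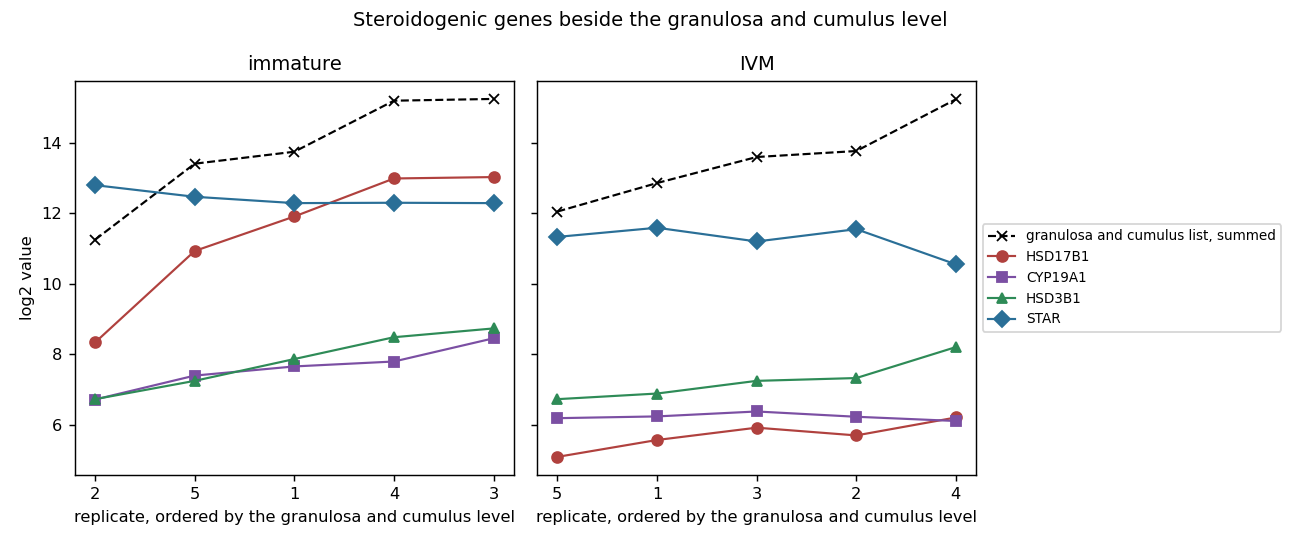
Log2 value of *HSD17B1*, *CYP19A1*, *HSD3B1* and *STAR* and the summed log2 level of the granulosa and cumulus list on each array, with the 5 replicates of each group ordered along the horizontal axis by that level. In the immature pools *HSD17B1* climbs with the list from 8.33 to 13.03, and in the IVM pools it stays between 5.08 and 6.20; heights of different genes are not comparable.

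The genes most like each member were sought by Pearson's r over the 10 arrays, after each group's mean was taken away. Points share their array, normalization and amplification, so these values only describe the arrays. *HSD17B1* was most like *DUSP1* (r = 0.990), a phosphatase that switches off MAP kinases, and *PGF* (r = 0.987), a growth factor of the VEGF family. *HSD3B1* was most like *EGR1* (r = 0.985), an immediate early transcription factor, and *CKM* (r = 0.979), the creatine kinase of muscle. *CYP19A1* was most like *JUN* (r = 0.931), a part of the AP-1 transcription factor, and *GSTA2* (r = 0.921), a glutathione transferase. For *CYP11A1* they were *ANAPC5* (r = 0.988) and *ATP5MC2* (r = 0.969), for *FDX1* *SH3GLB1* (r = 0.964) and *TMEM131L* (r = 0.959), and for *NR5A1*, whose values spanned little, *COX5A* (r = 0.825) and *SFN* (r = 0.823). *STAR* was most like *TP53INP1* (r = 0.978) and *SYNRG* (r = 0.949). Among the members themselves *HSD17B1* had r = 0.893 with *CYP19A1* and 0.873 with *HSD3B1*, and *STAR* had -0.566 with *HSD17B1* and -0.759 with *HSD3B1*. With the granulosa gene *INHA*, *STAR* had -0.727 and *FDX1* -0.608, while *HSD17B1*, *CYP19A1*, *HSD3B1* and *CYP11A1* had 0.92, 0.735, 0.935 and 0.89. With the oocyte gene *GDF9*, *STAR* had 0.659 and *FDX1* 0.743, while the others, in the same order, had -0.306, 0.0098, -0.571 and -0.583. *NR5A1* had 0.0487 and 0.0596. *INHA* and *GDF9* are single genes of their lists and do not stand for them. The granulosa list genes *KRT18* and *KITLG*, whose immature orders differed from that of *INHA*, were not compared. Which cells these transcripts came from was not tested.

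Other genes of the pathway moved in both directions. Of 74 genes in 4 lists 51 were on the array, each taken by its probe set with the highest mean, and 28 varied. At an adjusted p under 0.0001 from limma, 2 of the 51 fell (8.83% of all genes did) and 1 rose (1.33% of all), and of all genes that varied 15.7% fell and 2.32% rose. *CYB5A*, a cytochrome that boosts the lyase activity of *CYP17A1*, was at 9.73 to 10.17 in immature and 5.50 to 6.60 in IVM oocytes, a difference of -3.87 (adjusted p = 2.37e-06, standard error 0.19). *CREB1*, a transcription factor of the cyclic AMP pathway, changed by -1.55 (standard error 0.13, adjusted p = 5.44e-05), and *CITED2*, a transcriptional coactivator, rose by 1.57 (standard error 0.12, adjusted p = 3.21e-05). With the replicate number as a block none of the 3 passed (adjusted p = 7.04e-04, 0.00501 and 0.00259 from limma). Leaving out any 1 array ended the call of *CREB1* (adjusted p from 1.10e-04 to 3.29e-04), and leaving out 8 of the 10 in turn ended that of *CITED2* (up to 2.09e-04), as did the granulosa covariate (1.01e-04). At an adjusted p under 0.05, 8 of the 51 were lower (24.0% of all genes) and 12 higher (18.3% of all). Over the 28 that varied the same counts stand beside 38.0% lower and 29.8% higher of all genes that varied. Centring on the poly-A controls turned this balance to 15 lower and 8 higher (66.2% and 7.46% of all genes that varied). At the strict threshold it gave 12 lower (49.1%) and 2 higher (1.58%), which were *TSPO* and *HSD11B1*, while *CITED2* was at 0.64 and lost its call (adjusted p = 0.00116 from limma).

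Cholesterol supply had 1 gene lower, 3 higher and 1 not past 0.05 among the 5 that varied (38.0% of all genes that varied were lower and 29.8% higher), and with 5 genes nothing is read from these counts. *TSPO*, a protein of the outer mitochondrial membrane, was at 6.19, 5.81, 6.25, 6.64 and 5.99 in immature and at 8.75, 9.93, 9.74, 11.04 and 8.66 in IVM oocytes, a difference of 3.45 (adjusted p = 6.27e-04 from limma). *NPC2*, which moves cholesterol out of lysosomes, had a difference of 1.70 (adjusted p = 0.00267). *SOAT1*, which stores cholesterol as esters, was named after its values were seen and had -0.81 (adjusted p = 0.0213, and up to 0.0513 without any of 3 arrays that each ended the call).

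Among 11 further steroid enzymes and electron donors that varied, 5 were lower and 4 higher at an adjusted p under 0.05 (45.5% and 36.4%, against 38.0% and 29.8% of all genes that varied). Those named here beside *CYB5A* were chosen after their values were seen. *HSD11B1*, which regenerates cortisol, was at 5.25, 5.15, 5.12, 5.94 and 5.08 in immature and at 10.74, 11.43, 11.07, 13.72 and 9.13 in IVM oocytes. Its difference of 5.91 (standard error 0.75, adjusted p = 5.03e-04 from limma) was opposite in sign to that of *HSD17B1*. *HSD17B11*, a lipid droplet dehydrogenase, had 2.10 (adjusted p = 0.00202) and *HSD17B8*, a relative of *HSD17B1* that also serves mitochondrial fatty acid synthesis, had -1.10 (adjusted p = 2.14e-04). *POR*, which passes electrons to aromatase, had 1.41 (adjusted p = 5.23e-04, but 0.0604 at 0.48 after poly-A centring) and the aldo-keto reductase *AKR1B1* had -3.04 (adjusted p = 3.54e-04). *CYP17A1*, which makes the androgens that aromatase uses, did not vary.

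Of the 9 transcription regulators that varied, 2 were lower (22.2%, against 38.0% of all genes that varied), 5 higher (55.6%, against 29.8%) and 2 did not pass 0.05. With 9 genes nothing is read from these shares. *GATA4* and *GATA6*, which act on steroidogenic promoters in follicular cells and were named after their values were seen, had differences of 2.09 (adjusted p = 0.0151 from limma) and 3.04 (adjusted p = 0.0291), and leaving out any of 7 arrays ended the call of *GATA6* (adjusted p up to 0.0685). *NR0B1*, a repressor of *NR5A1*, also named afterwards, had -0.78 (adjusted p = 0.0382, 0.0725 with the replicate block and up to 0.0853 without 1 array, where 7 arrays each ended the call). None of the 3 receptor genes that varied passed 0.05 in the fit without a block. *FSHR*, the receptor through which FSH drives aromatase, was at 6.37 to 7.13 and at 6.40 to 6.70 (difference -0.29, adjusted p = 0.157), and passed at -0.40 without immature replicate 2 (adjusted p = 0.0111) and at -1.22 with poly-A centring. *IGF1R*, the receptor of an insulin-like growth factor, had 0.38 (adjusted p = 0.0983), and passed with the replicate block (0.0300), over the varying probe sets (0.0389), after quantile normalization (0.0448) and without IVM replicate 1 (0.0479), while poly-A centring turned it to -0.55 (adjusted p = 8.72e-04). The receptors of oestrogen (*ESR1*, *ESR2*), progesterone (*PGR*) and LH (*LHCGR*) did not vary.

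**Figure D4:**
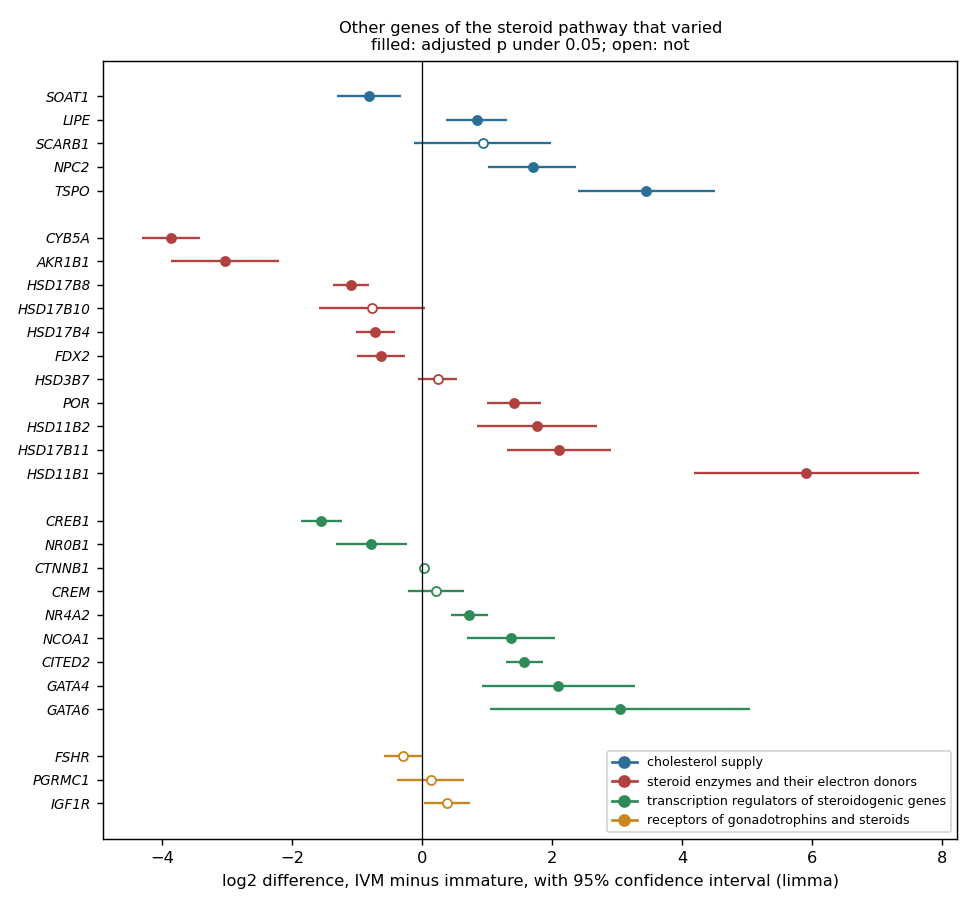
Log2 difference between IVM and immature oocytes (horizontal axis) with its 95% confidence interval for the 28 other pathway genes that varied, coloured by list. *HSD11B1* lies farthest to the right at 5.91 and *CYB5A* farthest to the left at -3.87, and no receptor passed 0.05 in this fit.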

How the data were processed

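Arrays of 5 immature and 5 IVM pools were read by the authors with GCOS, quantile normalized, and summarised with FARMS. The deposited table holds 1 log2 value for each probe set on each array. FARMS pulls probe sets without shared signal to a constant, so the size of a difference also depends on it. No array and no column of values was left out (0 unused), and no genome or sequence was used here.

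Control probe sets (112) were not tested. Gene symbols of the other 24016 came from the platform's annotation, updated through gene identifiers (13263) or accessions (2) of RefSeq, with the platform's symbol kept for 27, while 86 had several genes and 10638 were unnamed here. Using limma 3.58.1 (lmFit, eBayes) under R 4.3.3, IVM was compared with immature on every probe set, and p-values were adjusted by Benjamini-Hochberg over all 24016. With 14556 near-constant probe sets the prior degrees of freedom came to 0.103, and over the 9460 others to 1.86. The study's methods named SAM, which was not run. On simulated arrays over 24016 probe sets with 100 changed by 5 and 100 by 2, the fit recovered 88 and 38 at an adjusted p under 0.0001 and 99 and 86 at 0.05, with 0 and 3 false calls. Simulated noise was independent between probe sets, with the same SD in both groups. On the real arrays probe sets move together and spreads differ between groups, so these rates need not hold for them. A list's summed level is log2 of the sum of its varying genes' linear values.

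Named were all members, of each pathway list up to 2 genes past the strict threshold in each direction (otherwise the 2 with the smallest adjusted p), markers, and the 2 genes most like each member. Members, lists and tests were chosen with earlier results of these data known. Per the study's methods, replicates are collection days, and each day's complexes were divided between both groups. That the replicate numbers of the labels follow these days in both groups is not stated. The number of arrays limits the precision. Python 3.11.15, pandas 2.3.3, numpy 2.4.6 and matplotlib 3.10.9 made the tables and figures.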

Additional observations from a re-analysis of the deposited data

Results flagged for a closer look

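Among 106 groups of 5 arrays, for the members, pathway genes and follicular markers that varied, 9 held an array far from the other 4 by Dixon's criterion, which chance gives for about 1 in 20 groups. *FDX1* was at 11.94 in IVM replicate 4, and the other IVM arrays lay between 12.16 and 12.24. *NR5A1* was at 7.17 in immature replicate 5, against 7.21 to 7.22. Immature replicate 4 was above the other immature arrays for *HSD11B1* (5.94, against 5.08 to 5.25), *KRT18* (9.27, against 5.63 to 6.57) and *TNFAIP6* (5.95, against 3.27 to 3.77), and its *COL3A1* value of 6.73 stood apart from values of 6.73 to 6.74 that span next to nothing. *FDX2* was at 8.10 in IVM replicate 4, against 8.81 to 8.98, and *NCOA1* at 8.47 in immature replicate 3, against 9.03 to 9.20. *HAS2* was at 10.19 in immature replicate 2, against 8.91 to 9.09.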

How the results depend on the processing

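*HSD17B1*, *CYP19A1* and *STAR* were lower in IVM oocytes in all 18 alternatives and past 0.05 in all, except *STAR* in immature replicates 4 and 5 against IVM (-1.14). Without 1 array they ran from -6.53 to -5.35, -1.60 to -1.17 and -1.28 to -1.02, *HSD3B1* from -0.80 to -0.30, *CYP11A1* from 0.11 to 0.24, *FDX1* from 0.08 to 0.17 (past 0.05 at 0.17 without IVM replicate 4) and *NR5A1* from 0.00 to 0.03. Centring on the poly-A controls shifted the median of all probe sets by -0.94 and turned *CYP11A1* to -0.75, *FDX1* to -0.82, *NR5A1* to -0.92 and *IGF1R* to -0.55, all above that shift, with *HSD3B1* at -1.47. The granulosa covariate took *CYP11A1* to 0.22 and *HSD3B1* to -0.40, both past 0.05. The strict count of lower members, 0, was 4 with poly-A centring (near-constant probe sets not counted), 1 with the covariate, 3 at 0.05 and 0 to 1 without 1 array. For pathway genes, 2 lower and 1 higher became 12 and 2 with poly-A centring, 0 and 0 in immature replicates 4 and 5 against IVM, 4 and 4 over varying probe sets, 8 and 12 at 0.05, and 1 to 2 and 0 to 2 without 1 array. The shares beside the main, poly-A and 0.05 counts are given above. For the other fits, including those with the replicate block, strict shares were not counted, so nothing is read from those counts.

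With the replicate number as a block, members at the strict threshold stayed at 0 and pathway genes came to 0 lower and 0 higher, or to 1 and 2 over varying probe sets. The block left the 3 members past 0.05 (adjusted p = 0.0131, 0.0284 and 0.0133). Deviations of same-numbered arrays had r = 0.143, -0.347, 0.0872, 0.672 and 0.359 across probe sets, so the numbers were not taken as pairs. The cause of these changes was not tested.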

Other observations

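Some pathway genes that were higher in IVM oocytes also followed the granulosa and cumulus level among the IVM pools, which was lowest in replicate 5, followed by replicates 1, 3, 2 and 4. *TSPO* (8.66, 8.75, 9.74, 9.93 and 11.04) and *HSD11B1* (9.13, 10.74, 11.07, 11.43 and 13.72) had this order, and it was noticed after the values were seen. The order was not particular to that list. The summed levels of the cumulus expansion list and of the theca and stroma list had it too, and that of the oocyte list had the reverse. Among the immature pools *HSD11B1* spanned 0.86 while the granulosa and cumulus level spanned 3.99. *INSL3*, a hormone of theca cells, was at 5.84 to 7.49 in immature and 6.99 to 10.35 in IVM oocytes.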
